A study of Mus musculus with 13 samples.

Results

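Moxd1, Mid1, Arl2bp and the processed pseudogene Gm3375 were the 4 genes described here, of 53465 genes counted in mouse liver. They were chosen by their measured values, as genes whose liver RNA differed more than 8-fold between Nod2-/- and WT mice, so their differences are given as descriptions without a test. All 4 passed the filter on low counts. Of 13545 genes tested with edgeR's quasi-likelihood test, 157 (1.16%) passed a false discovery rate (FDR) of 5%, and 195 (1.44%) had normalized counts that did not overlap between the genotypes. The 4 genes were among both sets, which follows from their choice. An unadjusted p under 0.05 was found for 3127 of all tested genes (23.1%), the share against which such counts below are to be read. Moxd1, Mid1 and Gm3375 lie on chromosomes without Nod2. Arl2bp lies on chromosome 8 with Nod2, and its first base is 5.98 Mb beyond the last base of Nod2.

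Each library was made from the liver of 1 male BALB/c mouse, and there were 6 WT and 7 Nod2-/- mice. Nod2-/- mice lack the gene for NOD2, an intracellular sensor of bacterial cell wall fragments. Every mouse of both genotypes had received the carcinogen DMBA as a pup and was then kept on a high-fat diet, for 30 weeks by the labels and slightly longer by the study's methods. Libraries of untreated or chow-fed mice were not analysed here. The WT line came from a vendor's founders. WT and Nod2-/- mice were bred separately in the same room and were not littermates, so the deletion and any other inherited difference between the colonies cannot be told apart in these libraries.

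The libraries held 13824780 to 20579984 counts on genes. Hepatocyte markers were abundant in every library, with summed levels of 79247 to 163988 CPM (counts relative to library depth), and markers of exocrine pancreas, skeletal muscle and neurons summed to less than 0.5 CPM. Nod2 had 0 to 6 counts in both genotypes and could not be used to check the labels. The library labelled Nod2-/- 7 stood apart by its neutrophil genes. All 6 genes of that list were detected, 3 passed the filter and 0 passed 5% FDR, and they summed to 920 CPM in that mouse. The sum was between 5.23 and 37.6 CPM in the other Nod2-/- mice and between 3.57 and 7.7 CPM in WT. WT 3 stood apart from the other WT mice by genes of liver tumors and fetal liver, with a summed level of 304 CPM against 4.27 to 54.3 CPM, while Nod2-/- mice ranged from 16.5 to 423 CPM. Of the 4 genes of that list 3 were tested and 0 passed. Among all marker lists examined, the 1 called gene was Sox9, in the list of cholangiocytes and progenitor cells, at 1.29 (SE 0.25) on the log2 scale (adjusted p = 0.0324 by edgeR). All 5 genes of that list were tested, and they summed to between 107 and 402 CPM in Nod2-/- mice (median 223) and between 35.6 and 216 CPM in WT (median 77.3). The ranges of this sum overlapped between the genotypes, and its part in the differences of the 4 genes was not tested.

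Among these genes, 3 encode proteins of quite different kinds. MOXD1 is an endoplasmic reticulum protein of the copper-dependent monooxygenase family, whose best known members make noradrenaline and amidate peptides. MID1 is a microtubule-bound ubiquitin ligase of the TRIM family that controls protein phosphatase 2A, and in laboratory mice its gene runs across the boundary of the pseudoautosomal region of the X chromosome. ARL2BP binds the small GTPases ARL2 and ARL3, which act in tubulin folding, mitochondria and cilia. A processed pseudogene such as Gm3375 is a copy of a messenger RNA that was inserted back into the genome, without introns.

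Gm3375 is a nearly exact copy of the coding sequence of Psmb5, which encodes the beta 5 subunit that carries the chymotrypsin-like activity of the proteasome. Gm3375 (ENSMUSG00000107470.1) is a single exon of 796 bases at chr7:3181093-3181888 of GRCm38, on the forward strand, whereas Psmb5 lies on the reverse strand of chromosome 14, from 54614119 to 54618022. The whole of Gm3375 aligned to Psmb5 from its start codon on, with 98.9% identity over 796 columns. There were 8 substitutions, G6A, G106A, C297T, C306T, T387A, C417T, T465C and C660A, in which the Psmb5 base stands first and positions count from the A of the Psmb5 start codon. Gm3375 also has 1 extra base, at its position 263. The stretch with most of these differences is shown because it holds the bases by which a read can be placed on one copy or the other. It spans bases 245 to 475 of Gm3375, at chr7:3181337-3181567, and coding bases 245 to 474 of Psmb5. Both are written in the sense direction, from the transcripts of the GENCODE annotation of GRCm38, and capitals mark the bases that differ.
Gm3375: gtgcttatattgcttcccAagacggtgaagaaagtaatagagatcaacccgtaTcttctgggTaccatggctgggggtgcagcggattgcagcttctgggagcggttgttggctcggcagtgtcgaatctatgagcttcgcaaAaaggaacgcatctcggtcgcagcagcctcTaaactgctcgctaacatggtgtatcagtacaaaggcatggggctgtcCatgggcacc
Psmb5: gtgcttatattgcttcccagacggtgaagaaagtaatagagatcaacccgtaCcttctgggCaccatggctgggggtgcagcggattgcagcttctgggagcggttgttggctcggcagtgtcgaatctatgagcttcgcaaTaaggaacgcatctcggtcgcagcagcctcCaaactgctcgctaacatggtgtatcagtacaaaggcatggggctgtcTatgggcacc

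The reads were pairs of 43 bases, so stretches of that length measure how often a single read cannot tell the copies apart. Of the 754 stretches of 43 bases in Gm3375, 61% also occur in Psmb5, and 0.928% occur in a further pseudogene, Psmb5-ps. The study's text used here does not state how reads with several possible places were counted. For the other genes this overlap differed widely. Moxd1 and Arl2bp shared none of their 3156 and 2876 stretches with another annotated transcript, and Mid1 shared 29.5% of 6833.

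Gm3375 had 399, 414, 340, 319, 381 and 522 counts in WT mice 1 to 6, and 34, 18, 21, 20, 30, 26 and 24 counts in Nod2-/- mice 1 to 7. Every WT mouse was far above every Nod2-/- mouse, and the lowest normalized WT value was 8.55 times the highest Nod2-/- value. Normalized counts were 395 ± 55 (SD, n = 6) in WT mice and 25 ± 6.24 (SD, n = 7) in Nod2-/- mice, which gave a fitted log2 difference of -3.98 (SE 0.16). This gene varied little within a genotype, with an SD of log2 CPM of 0.21 in WT mice and 0.32 in Nod2-/- mice. Its difference thus came with the smallest SE of the 4 genes.

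Psmb5 moved the other way. It had 738, 716, 595, 601, 704 and 969 counts in WT mice and 1258, 1099, 1007, 1037, 1416, 1069 and 1127 counts in Nod2-/- mice, and after normalization the genotypes did not overlap. Psmb5 was not itself used to choose the genes, but 51.3% of its 43-base stretches also occur in Gm3375. Its test is therefore not independent of that choice. Psmb5 was 0.68 higher in Nod2-/- mice on the log2 scale (SE 0.10, edgeR's quasi-likelihood test, adjusted p = 0.00435), a call that held in all 21 other fits. It lies in a region of chromosome 14 in which 6 of 35 other tested genes within 1 Mb were called (17.1%). The share was 4.7% on the whole of chromosome 14 and 1.16% over all tested genes. This region was counted after the values had been seen. Mean normalized Psmb5 counts were 432 higher in Nod2-/- mice, and mean Gm3375 counts were 370 lower. The sum of both genes was 1113 ± 155 (SD, n = 6) in WT mice, with a range of 845 to 1239, and 1176 ± 120 (SD, n = 7) in Nod2-/- mice, with a range of 1054 to 1366. These sums overlapped, and their means differed by 0.08 on the log2 scale. Of the sum, Gm3375 took 35.5% ± 0.809 (SD, n = 6) in WT mice and 2.1% ± 0.328 (SD, n = 7) in Nod2-/- mice. The share was 34.7% to 36.6% in each WT mouse, also where the sum itself was lowest, in WT 3. How reads were divided between the copies was not tested, since the reads themselves were not analysed here. Psmb5-ps had at most 2 counts in any library.

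**Figure D1:**
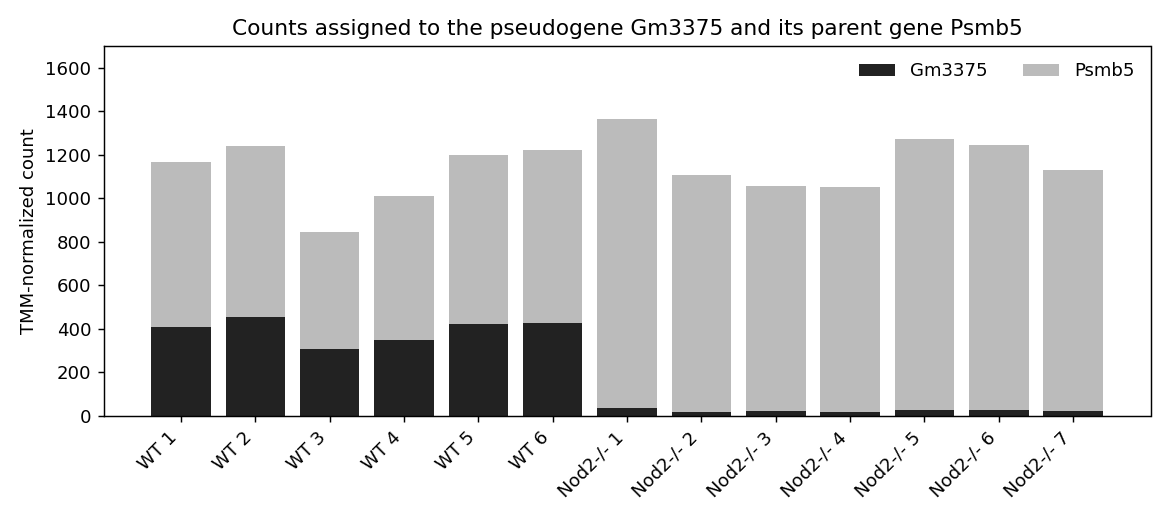
TMM-normalized counts of Gm3375 (black) and Psmb5 (grey), stacked for each of the 6 WT and 7 Nod2-/- mice. The total height is similar in both genotypes, while the black part is 34.7% to 36.6% of it in every WT mouse and between 1.61% and 2.63% in every Nod2-/- mouse.

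The other genes of the proteasome core gave a background for Psmb5. This list of 17 genes was written after the values of Gm3375 and Psmb5 had been seen. Psmb5 was the 1 gene of the 17 that passed 5% FDR, where 1.16% of all tested genes passed. There were 4 at an unadjusted p under 0.05 (23.1% over all genes). The median log2 difference of the list was -0.03 (0.02 over all 13545 tested genes), and 11 of the 17 had negative values. The constitutive catalytic subunits Psmb6 and Psmb7 were at -0.12 (SE 0.09) and -0.22 (SE 0.10). Psmb8, the interferon-induced counterpart of Psmb5, was at 0.51 (SE 0.14) and did not pass with edgeR (adjusted p = 0.074), though it did with DESeq2. Psmb9 and Psmb10 were also positive, at 0.45 (SE 0.17) and 0.23 (SE 0.12), and passed with neither tool.

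**Figure D2:**
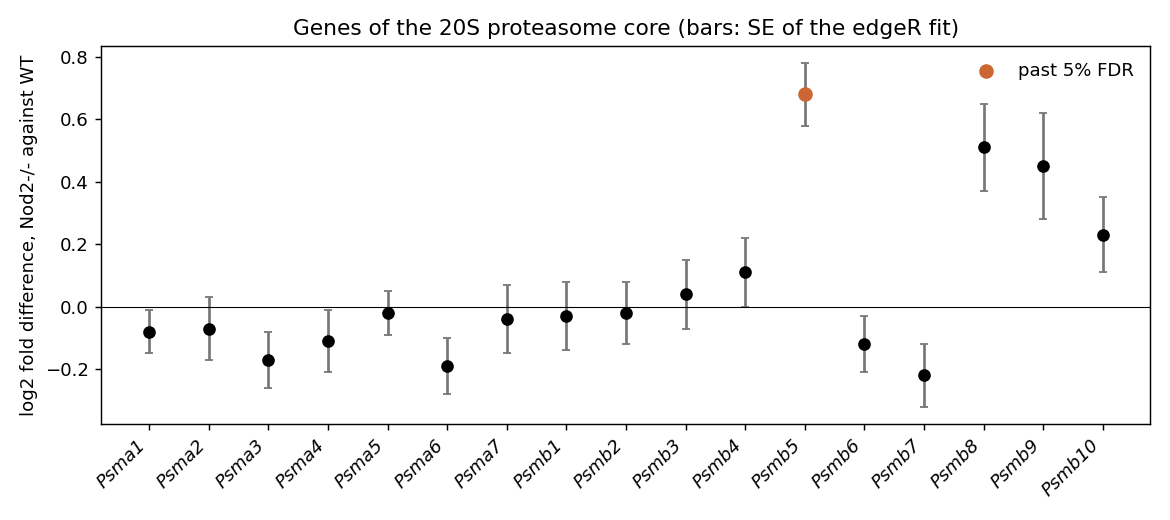
Log2 difference of Nod2-/- against WT mice for 17 genes of the 20S proteasome core, with the SE derived from edgeR's test as bars. Psmb5 (0.68) is the 1 coloured point, past 5% FDR, and the values run from -0.22 for Psmb7 up to Psmb5.

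Moxd1 showed the largest difference of the 4 genes and by far the largest spread. Moxd1 (ENSMUSG00000020000.7) lies on the forward strand of chromosome 10, from 24223517 to 24302790, with 3198 bases of exons. It had 1, 0, 9, 4, 5 and 3 counts in WT mice 1 to 6, and 1959, 1686, 1427, 798, 296, 384 and 23 counts in Nod2-/- mice 1 to 7. No WT mouse had more than 9 counts, and every Nod2-/- mouse had more than that. WT mice had 3.59 ± 3.03 (SD, n = 6) normalized counts and Nod2-/- mice 961 ± 782 (SD, n = 7). The fitted log2 difference was 8.0 (SE 1.02), the second largest of any tested gene.

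The Nod2-/- mice themselves differed 91.9-fold in Moxd1 from lowest to highest, and their SD of log2 CPM, 2.23, exceeded that of 99.9% of tested genes. The lowest value, 23 counts, was in Nod2-/- 7, the mouse with the high neutrophil genes, and it was still 2.77 times the highest WT value after normalization. The highest WT value, 9 counts, was in WT 3, the mouse with the high tumor genes. The summed tumor genes were at 423, 285, 28.4, 373, 105, 16.5 and 139 CPM in Nod2-/- mice 1 to 7. They were thus high in Nod2-/- 1 and 2, which had the most Moxd1, and low in Nod2-/- 3, which had the next most, and their part in the spread of Moxd1 was not tested. Without both Nod2-/- 7 and WT 3 the log2 ratio of the means was 8.70, against 8.06 with all mice. These mice were picked after the values had been seen. Leaving out the lowest Nod2-/- value and the highest WT value can only raise the ratio. In whole liver, more cells with Moxd1 RNA and more RNA per cell cannot be told apart.

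No relative or cofactor gene of Moxd1 passed edgeR's test. The list held the monooxygenase family, the proteins that feed it electrons and the proteins that supply copper. Of 12 genes, 10 were tested and 0 passed 5% FDR, where 1.16% of all tested genes passed. There were 2 at an unadjusted p under 0.05 (23.1% over all genes) and 0 calls by DESeq2 or by voom with quality weights. The median log2 difference was -0.15. Dbh, which makes noradrenaline, had 0 counts in every library and Moxd2 at most 1, so Moxd1 and the peptide-amidating enzyme Pam were the detected members of the family. Pam had a log2 difference of 0.01 (SE 0.11). The copper importer Slc31a1 was at -0.16 (SE 0.07), the chaperones Atox1 and Ccs at 0.02 (SE 0.12) and -0.24 (SE 0.13), the exporter Atp7b at -0.18 (SE 0.16), and ceruloplasmin, Cp, at 0.63 (SE 0.26). Cyb561, an electron carrier across vesicle membranes named here after its value was seen, was at 1.98 (SE 0.66, adjusted p = 0.106 by edgeR).

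Arl2bp was low in WT liver and higher in every Nod2-/- mouse. Arl2bp (ENSMUSG00000031776.17) lies on the forward strand of chromosome 8, from 94666600 to 94674425, with 2802 bases of exons. It had 7, 7, 16, 13, 12 and 10 counts in WT mice and 142, 178, 114, 215, 94, 84 and 111 counts in Nod2-/- mice. The genotypes were well apart, the lowest normalized Nod2-/- value being 5.71 times the highest WT value. WT mice had 10.8 ± 3.5 (SD, n = 6) normalized counts against 135 ± 47.5 (SD, n = 7) in Nod2-/- mice, a fitted log2 difference of 3.63 (SE 0.28). In contrast to Moxd1, Arl2bp spread only 2.59-fold over the Nod2-/- mice.

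No partner gene of Arl2bp passed the test with edgeR. Of 17 listed genes 16 were tested and 0 passed 5% FDR, where 1.16% of all tested genes passed. There were 2 at an unadjusted p under 0.05 (23.1% over all genes), and the median log2 difference was 0.08. The GTPases themselves, Arl2 and Arl3, were at -0.01 (SE 0.15) and -0.07 (SE 0.12). Among the most abundant partners, the nucleotide carrier Slc25a5 was at -0.16 (SE 0.09), the transcription factor Stat3, whose nuclear retention ARL2BP assists, at 0.34 (SE 0.17), the lipid-binding Unc119b at 0.08 (SE 0.07) and the tubulin cofactor Tbcd at -0.08 (SE 0.09). The GTPase activators Elmod2 and Elmod3 were at -0.13 (SE 0.11) and -0.38 (SE 0.20). Unc119, a cargo carrier released by ARL3 and named here after its value was seen, was at 1.40 (SE 0.34) with an adjusted p of 0.0601 by edgeR, and it was the 1 listed gene called by DESeq2 and by voom.

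Mid1 differed in the other direction. Mid1 (ENSMUSG00000035299.16) lies on the forward strand of the X chromosome, from 169685199 to 170005736, with 6720 bases of exons. It had 1614, 585, 1486, 1947, 414 and 749 counts in WT mice and 94, 53, 80, 148, 101, 61 and 175 counts in Nod2-/- mice. All WT mice were higher than all Nod2-/- mice. WT 2, 5 and 6 had 414 to 749 counts, and WT 1, 3 and 4 had 1486 to 1947. WT mice had 1141 ± 676 (SD, n = 6) normalized counts against 102 ± 42.8 (SD, n = 7) in Nod2-/- mice, a fitted log2 difference of -3.48 (SE 0.39). The SD of log2 CPM in WT mice was 0.90, above that of 96.7% of tested genes.

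Lung epithelium genes were also higher in several WT libraries. All 4 genes of that list were detected and 3 tested, 0 of which passed 5% FDR, and their sum was between 12.5 and 173 CPM in WT and between 1.91 and 27 CPM in Nod2-/- mice. Their highest sum was in WT 4, which also had the most Mid1, but WT 1 had 1614 Mid1 counts with a sum of 12.5 CPM, the lowest of the WT mice. Their part in the Mid1 difference was not tested.

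Mid1 shares sequence with several other annotated genes. Of its 43-base stretches, 15.4% occur in Mid1-ps1 and 5.56% in Gm21742, both partial copies on the Y chromosome, and 12.7% occur on the opposite strand in G530011O06Rik, which overlaps Mid1. Mid1-ps1 had at most 6 counts and Gm21742 had 0 in every library. G530011O06Rik had 6 to 33 counts in WT mice (median 12.5) and 12 to 99 in Nod2-/- mice, with a log2 difference of 1.37 (SE 0.46) that did not pass with edgeR (adjusted p = 0.106) and passed with DESeq2. The kit kept strand, but the use of strand in counting is not stated, so Mid1 and this overlapping gene are uncertain where they share bases. Against Mid1, G530011O06Rik had at most 33 counts where Mid1 had at least 414 in WT mice, but in Nod2-/- mice its counts came closer, with 99 against 148 in Nod2-/- 4 and 48 against 101 in Nod2-/- 5. Counts on the shared stretches themselves were not analysed here, and their part in the Mid1 difference was not tested.

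No gene for a relative or partner of MID1 passed edgeR's test. Of 12 listed genes 7 were tested and 0 passed 5% FDR, where 1.16% of all tested genes passed. There was 1 at an unadjusted p under 0.05 (23.1% over all genes), and the median log2 difference was 0.07. The closest relative, Mid2, was at 0.11 (SE 0.13). The phosphatase 2A subunits Ppp2ca, Ppp2cb and Ppp2r1a were at -0.08 (SE 0.08), 0.07 (SE 0.09) and 0.12 (SE 0.10), and Igbp1, which links MID1 to the phosphatase, was at -0.04 (SE 0.10). Mid1ip1, a MID1 partner that also activates fatty acid synthesis through acetyl-CoA carboxylase, was at 0.70 (SE 0.19) with an adjusted p of 0.0723 by edgeR, and it was the 1 gene of the list called by DESeq2 and by voom.

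**Figure D3:**
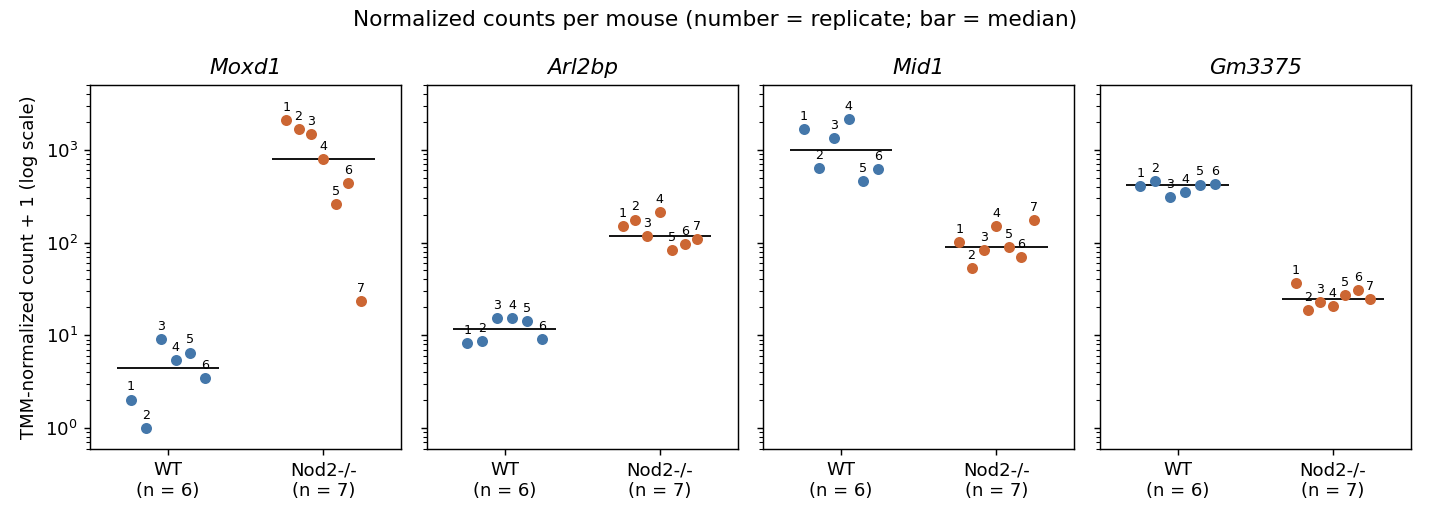
TMM-normalized count plus 1 on a log axis for each mouse (points, numbered by replicate) in 6 WT (blue) and 7 Nod2-/- mice (orange), with a bar at the median. No gene has overlapping genotypes, and the Moxd1 values of the Nod2-/- mice span 22.5 to 2072 normalized counts.

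Of the 157 genes past 5% FDR, 88 were higher and 69 lower in Nod2-/- mice. These counts depended on the mice included, with 697 and 459 genes without WT 3, 21 and 20 without WT 1 and 20 and 22 without WT 4. With an average of at least 1 log2 CPM, 9 genes were past both 5% FDR and 8-fold. Beside these 4, the others were Cebpe (272-fold higher in Nod2-/- mice), Klhl33 (27.5-fold lower), Cxcl14 (20.8-fold higher), Aqp4 (18-fold lower) and Ces1g (17.5-fold lower). The smallest differences inside the limit were those of Mid1, 11.2-fold, and Arl2bp, 12.4-fold. The nearest genes outside it were Cyp17a1 (6.55-fold) and Ccdc122 (6.34-fold) on the higher side, and Lama3 (4.48-fold) and Gbp11 (4.31-fold) on the lower side.

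Compared per length, as CPM per kb of exon, the 4 genes changed their order between genotypes. In WT liver Gm3375 was highest with 29.9 ± 4.17 (SD, n = 6), followed by Mid1 with 10.2 ± 6.07, and Arl2bp and Moxd1 were low with 0.233 ± 0.0752 and 0.0677 ± 0.0571. In Nod2-/- liver Moxd1 was highest with 18.1 ± 14.7 (SD, n = 7), followed by Arl2bp with 2.91 ± 1.02, Gm3375 with 1.89 ± 0.473 and Mid1 with 0.912 ± 0.384. The level of Gm3375 is uncertain, because its sequence is shared with Psmb5 to the extent given above.

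Genes next to the 4 genes were examined within 1 Mb, since their values had no part in the choice. G530011O06Rik is a partial exception. It overlaps Mid1 and shares sequence with it, so its counts may not be independent of those used to choose Mid1. Of 64 tested neighbours 3 passed 5% FDR with edgeR, where 1.16% of all tested genes passed, and the median log2 difference was 0.11. All 3 lay beside Arl2bp, among 30 tested genes. Of these 30, 10 had an unadjusted p under 0.05 (23.1% over all genes). DESeq2 also called Coq9 there, and voom also called Adgrg3 and Kifc3. Gm15889 fell by 1.38 on the log2 scale (SE 0.30, adjusted p = 0.0422), Herpud1, a protein of the endoplasmic reticulum stress response, fell by 0.55 (SE 0.12, adjusted p = 0.049), and Cpne2, a calcium-dependent membrane-binding copine, rose by 1.07 (SE 0.23, adjusted p = 0.0422). Leaving out any one of Nod2-/- 4, 6 or 7 or WT 1, 2, 4 or 5 left 0 called neighbours, 1 was called without Nod2-/- 2 and 8 without WT 3. The genes directly beside Arl2bp were Rspry1, 6.33 kb before it at -0.19 (SE 0.09), and Pllp, 0.469 kb beyond it on the opposite strand at -0.03 (SE 0.23).

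No neighbour of the other genes passed with edgeR, where 1.16% of all tested genes passed and 23.1% had an unadjusted p under 0.05. Around Moxd1, 0 of 12 passed, 2 had an unadjusted p under 0.05, DESeq2 called Rps12 and voom called Slc18b1. The nearest, the syntaxin gene Stx7 and the matricellular gene Ccn2, were at 0.14 (SE 0.08) and 0.50 (SE 0.45). Around Mid1, 0 of 4 passed, 1 had an unadjusted p under 0.05, DESeq2 called G530011O06Rik, voom called 0, and Hccs, the heme lyase gene on its other side, was at -0.07 (SE 0.11). Around Gm3375, 0 of 18 passed, 4 had an unadjusted p under 0.05, and DESeq2 and voom both called Gm5340, which was at 2.52 (SE 0.73) with an adjusted p of 0.0777 by edgeR. The neighbours called by these tools were named after their values were seen. The nearest were Gm7353 at 0.15 (SE 0.21) and Nlrp12 at -0.67 (SE 0.30), which did not pass.

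**Figure D4:**
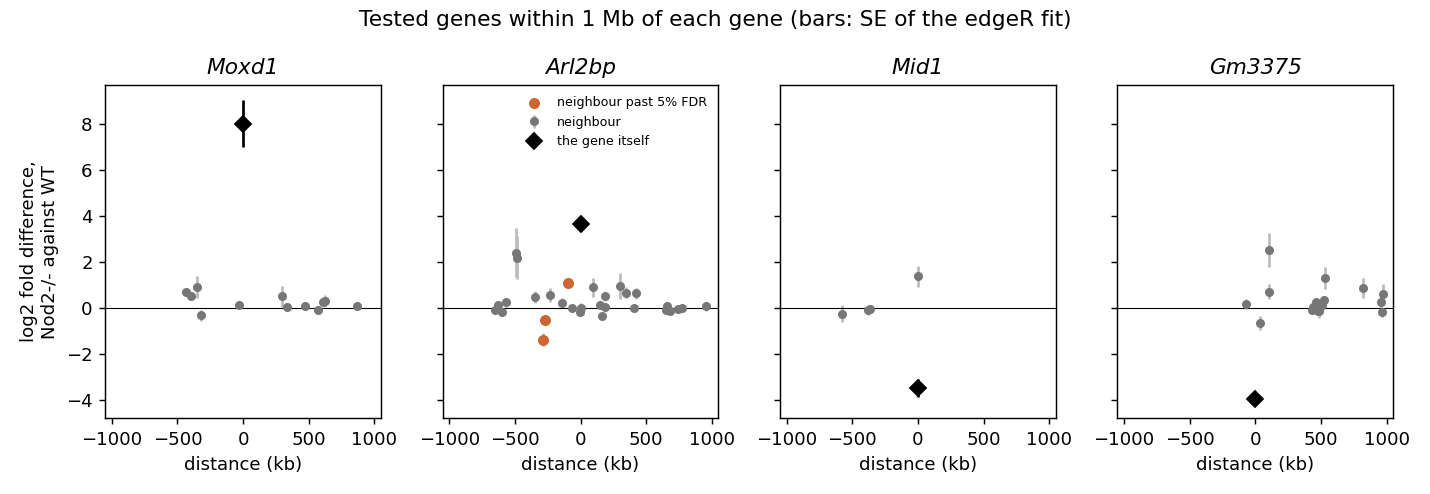
Log2 difference of Nod2-/- against WT mice, with SE bars, by distance in kb from each of the 4 genes (black diamond at 0) for tested genes within 1 Mb (grey, or coloured where past 5% FDR). The 3 coloured neighbours all lie beside Arl2bp, and neighbour values run from -1.38 to 2.52.

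Wider regions were counted after the values had been seen. Within 10 Mb of Nod2, with Arl2bp left out, 4 of 147 tested genes were called (2.72%). On the chromosomes of the other 3 genes, with those left out, 3 of 696 were called on chromosome 10 (0.431%), 2 of 400 on the X chromosome (0.5%) and 10 of 1022 on chromosome 7 (0.978%). On chromosome 14, which holds Psmb5, the count was 22 of 468 (4.7%) with Psmb5 left out. Of 459 tested processed pseudogenes 3 were called, where 1.16% of all tested genes were called. These were Gm3375, which was chosen for its value, and Gm13722 and Gm14584, all lower in Nod2-/- mice.

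The genes with the most similar pattern over the 13 libraries were sought by Pearson's r of log2 CPM, which mostly reflects a shared genotype difference. Moxd1 was most like Arl2bp (r = 0.933), Prkar2a (0.919), Cebpe (0.916), Tmem260 (0.915) and Sall2 (0.895), and least like Cln8 (-0.906), Gm3375 (-0.902) and Lpin2 (-0.893). Arl2bp was most like Cebpe (0.962), Phyhip (0.960), Gm26782 (0.959), Tmem164 (0.946) and Ppp1r3e (0.940), and least like Gm3375 (-0.979), Ces1g (-0.958) and Klhl33 (-0.940). Mid1 was most like Arhgef40 (0.926), Gm3375 (0.905), Aqp4 (0.902), Trim13 (0.893) and Klhl33 (0.891), and least like Cebpe (-0.944), Phyhip (-0.937) and Tmem45a (-0.936). Gm3375 was most like Aqp4 (0.957), Gm14584 (0.943), Spryd7 (0.938), Klhl33 (0.938) and Ces1g (0.933), and least like Cebpe (-0.986), Arl2bp (-0.979) and Gm26782 (-0.976).

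After each genotype's mean was subtracted, other genes came first and none of them was called. They were picked as the highest among 13545 tested genes over only 13 libraries. How high r would reach by chance in such a search was not tested. For Moxd1 these included Adh6-ps1 (r = 0.927), Gm45792 (0.901), Uggt1 (0.887) and Zswim4 (0.885). For Arl2bp they were Ccdc149 (0.937), Sec23ip (0.926), Rab6a (0.907), Ccne1 (0.904) and Ctps (0.902). For Mid1 they were G6pc3 (0.882), Plekha4 (0.871), Nckipsd (0.867), Gramd1a (0.862) and Sec61a2 (0.858), and for Gm3375 Sap18b (0.888), Timmdc1 (0.875), AK157302 (0.872), Gm15920 (0.870) and Uchl3 (0.863). Between pairs of the 4 genes, r over the 13 libraries was at most 0.93 and at least -0.98, and after subtraction it was 0.55 for Moxd1 with Arl2bp, -0.52 for Arl2bp with Gm3375, -0.29 for Moxd1 with Mid1, -0.24 for Mid1 with Gm3375, 0.15 for Arl2bp with Mid1 and -0.13 for Moxd1 with Gm3375.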

How the data were processed

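Liver RNA of 13 male mice was sequenced as read pairs of 43 bases. The authors used Trimmomatic 0.33 for trimming and TopHat2 2.1.1 for mapping to GRCm38 with a GENCODE gene set, and they deposited raw counts per gene and mouse. The counting program and its use of strand and of reads with several places are not given in the sources used here. Of 53465 genes, 53274 matched the annotation (GENCODE release M21) by identifier, and 1 entry without an identifier was left out.

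Genes kept by edgeR's filterByExpr (13545) entered a quasi-likelihood fit (edgeR 4.0.16, R 4.3.3, glmQLFit and glmQLFTest after TMM normalization, Benjamini-Hochberg, threshold 0.05) of 7 Nod2-/- against 6 WT mice without covariates. The test was checked on simulated data. Each SE was derived from the test, as the size of the fitted log2 difference divided by the square root of its F statistic. Normalized counts are counts divided by the library's effective size relative to the mean of all libraries, and log2 CPM used a prior count of 2. Libraries of a genotype differed by more than sampling noise in all 36 pairs (chi-square per degree of freedom 10.7 to 160). Alternatives were DESeq2 1.42.0 (the authors' tool), voomWithQualityWeights of limma 3.58.1, RLE normalization, other filters, a robust fit, a block, other estimates of the fold, other windows, and leaving out each mouse. Transcripts were compared by shared stretches of 43 bases on both strands.

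The genes, lists and tests were chosen with earlier results of these data known. Named genes were the 4 genes, those past or just under 8-fold, the 5 most and 3 least similar in pattern (and 5 after centring), listed relatives that were called or, failing that, most abundant, the nearest and the called neighbours, and the parent gene of Gm3375. A result for 1 gene is not reported here.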

Additional observations from a re-analysis of the deposited data

Results flagged for a closer look

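Values in each genotype were examined for a mouse far from its group, for 6 genes in both genotypes (12 groups), where chance alone marks about 1 in 20. In 1 group a mouse stood apart. G530011O06Rik, the gene that overlaps Mid1 on the opposite strand, had 98.7 normalized counts in Nod2-/- 4 against a median of 28.2 in the other Nod2-/- mice, a gap of 0.665 of the group's range. Mid1 itself had 148 counts in that mouse, within the 53 to 175 of its genotype.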

How the results depend on the processing

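The log2 differences of the 4 genes kept their direction in every alternative that estimated them. This follows from their choice by these same values, in which the genotypes did not overlap. The differences ran from 7.42 to 8.70 for Moxd1, 3.42 to 3.72 for Arl2bp, -3.66 to -3.21 for Mid1 and -4.14 to -3.88 for Gm3375. The 8.70 came from leaving out both Nod2-/- 7 and WT 3, which were picked after the values had been seen. With at least 10 counts in every library, Moxd1 and Arl2bp were filtered out. The sum of Gm3375 and Psmb5, chosen after seeing the data, had a log2 difference of 0.08 between group means. This describes the sum, most of which is Psmb5, and is not an estimate of the Gm3375 difference. Numbers of called genes depended strongly on the fit. Against 88 higher and 69 lower genes, DESeq2 called 605 and 549, voom 519 and 324, and the replicate block 17 and 18. They called 8, 7 and 0 neighbours and 2, 2 and 0 related genes. DESeq2 was run without edgeR's filter on low counts, so its numbers cover a wider set of genes and neighbours. The replicate numbers did not pair the mice, since deviations of same-numbered mice correlated between -0.302 and 0.304, and Nod2-/- 7 stood alone in its block, so it did not enter that comparison. Under the block no neighbour of Arl2bp passed, and Psmb5 did (adjusted p = 0.0139 by edgeR). The 3 neighbours called in the main fit then had adjusted p of 0.0623 to 0.139 by edgeR. Leaving out 1 mouse gave 20 to 697 higher genes, 20 to 459 lower genes, 0 to 8 neighbours and 0 to 2 related genes. The highest numbers came without WT 3, and without Nod2-/- 6 there was 1 related gene. Higher and lower genes numbered 31 and 36 without Nod2-/- 4, 53 and 28 without Nod2-/- 6, 28 and 26 without Nod2-/- 7, 21 and 20 without WT 1, 24 and 21 without WT 2, 20 and 22 without WT 4 and 28 and 24 without WT 5, and 104 and 107 genes were lower without Nod2-/- 1 and Nod2-/- 3. A window of 2 Mb held 5 called neighbours, 4 of them around Arl2bp. The lowest log2 difference around Arl2bp was then -4.13, the value of Ces1g, which is also on chromosome 8 and past 8-fold. The causes were not tested. Moxd1 in WT liver rests on at most 9 counts per mouse.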
